A study of Homo sapiens with 4 samples.

Results

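The olfactory receptor genes of chromosome 11 were taken as every promoter of the count table whose Entrez identifier maps to chromosome 11 and to a symbol made of OR, digits, letters and digits, with pseudogenes ending in P left out, and no filter on low counts. This gave 175 promoters of 28775 in the table, of which 168 belong to protein-coding genes and 7 to transcribed pseudogenes in the RefSeq gene table. Another 6 genes of that gene table meet the symbol rule but have no row among the counts. Of the 175 members, 57 belong to families 51 to 56, the class I receptors, and 118 to the remaining families, the class II receptors.

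Chromatin accessibility was profiled by ATAC-seq, in which a transposase cuts and tags exposed DNA, in HEK293T, an immortalised human kidney cell line of embryonic origin. The question was how chromatin accessibility responds to extra MORC2, an ATPase that binds and compacts DNA. All 4 libraries, 2 per group, came from cells with wild-type MORC2. The control group (control 1 and control 2) received lipofectamine only, and the overexpression group (overexpression 1 and overexpression 2) received a plasmid that encodes MORC2 fused to meGFP (pBacMam-MORC2-meGFP) for 72 hours by lipofectamine transfection. The labels give no empty plasmid in the control, so plasmid DNA and the MORC2 protein cannot be told apart as parts of the treatment. No label says that the replicates were separate cultures, so p-values speak only of these libraries. The edgeR p-values and standard errors given below take a spread pooled over promoters, and not the spread of each promoter's own replicates.

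Olfactory receptors are G protein-coupled receptors of the nose. An olfactory sensory neuron expresses a single allele of a single receptor gene, while the other receptor genes stay in compact chromatin that carries the heterochromatin marks H3K9me3 and H4K20me3. Class I receptors resemble those of fish and their human genes sit together on the short arm of chromosome 11, around the beta-globin genes, whereas class II genes lie in clusters on many chromosomes. Outside the nose most receptor genes are silent, and HEK293T cells are widely used to express single receptors from plasmids together with helper proteins such as RTP1, because the cells make few receptors of their own.

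The members lie in 8 runs along the gene table, a run ending where 25 or more other entries separate neighbouring members. The first run, from OR52B4 to OR52W1, holds all 57 class I members and the beta-globin genes, and the run from OR4C13 to OR5AK2 holds 53 class II members. The run from OR6X1 to OR8A1 holds 23, the run from OR9Q1 to OR5B21 holds 13 and the run from OR2AG2 to OR10A3 holds 12. One member, OR9G9, has no place in the primary order of the chromosome.

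Promoter sequence from RefSeq (GRCh38.p14) was matched to 135 of the 175 members, as windows of 250 bases before to 50 bases after the most upstream start listed for the gene. The counts themselves were made on T2T-CHM13 for promoters that the study defines as 2 kb windows, so the sequences describe the start sites and not the exact counted intervals. The windows of 4 members are printed to show the range from the most to the least accessible member with a window, each as 280 bases that end 30 bases after the start, with CpG dinucleotides and an ATG at the start itself in capitals. OR51E1 had the highest level of the members with a window (chr11:4643732-4644011, plus strand), OR5AN1 lay nearest to the median level (chr11:59358645-59358924, plus strand), OR52N1 had the lowest level (chr11:5791236-5791515, minus strand) and OR51V1 is the receptor gene next to HBB (chr11:5200653-5200932, minus strand).
OR51E1: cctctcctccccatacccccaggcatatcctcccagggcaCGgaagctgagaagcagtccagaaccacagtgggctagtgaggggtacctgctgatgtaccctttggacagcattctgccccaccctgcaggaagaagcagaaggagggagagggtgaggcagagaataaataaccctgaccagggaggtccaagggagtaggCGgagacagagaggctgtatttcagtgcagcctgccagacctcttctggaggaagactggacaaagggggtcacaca
OR5AN1: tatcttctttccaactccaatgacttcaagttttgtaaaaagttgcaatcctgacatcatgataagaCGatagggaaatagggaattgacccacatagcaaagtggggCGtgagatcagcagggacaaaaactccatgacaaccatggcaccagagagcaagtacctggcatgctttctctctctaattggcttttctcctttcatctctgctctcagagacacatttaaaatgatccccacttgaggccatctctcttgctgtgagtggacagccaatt
OR52N1: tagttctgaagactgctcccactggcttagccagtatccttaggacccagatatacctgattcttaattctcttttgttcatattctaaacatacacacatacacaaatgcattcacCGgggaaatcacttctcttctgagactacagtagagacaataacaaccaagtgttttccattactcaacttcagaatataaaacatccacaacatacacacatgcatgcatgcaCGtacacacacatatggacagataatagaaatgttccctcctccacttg
OR51V1: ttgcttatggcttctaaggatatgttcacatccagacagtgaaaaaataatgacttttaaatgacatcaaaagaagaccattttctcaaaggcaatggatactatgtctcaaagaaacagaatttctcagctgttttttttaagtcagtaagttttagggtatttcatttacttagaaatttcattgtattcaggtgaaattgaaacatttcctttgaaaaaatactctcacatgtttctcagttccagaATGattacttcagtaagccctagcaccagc
The printed stretch of OR51E1 held 57.5% G + C, against 43.9% for OR5AN1, 39.3% for OR52N1 and 32.5% for OR51V1. The first 3 stretches held 2 CpG each. That of OR51V1 held none, and its listed start falls on an ATG, which was not matched to a coding sequence.

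Such sequences were poor in CpG across the whole set. The median member window held 37.0% G + C and 1 CpG, whereas the median over 19554 promoters of the reference table was 61.3% G + C and 20 CpG, and the median ribosomal protein gene, a housekeeping reference, held 59.3% and 23. No CpG at all was found in 36 of the 135 member windows (26.7%), against 2.38% of all promoters. The richest member was OR52N2, with 14 CpG in its 300 bases, and the next, OR51S1, held 6. In 64 windows (47.4%) the listed start was an ATG, against 2.43% of all promoters. Whether that ATG opens the coding sequence, with no untranslated first exon listed, was not checked. The level at these 64 members had a median of 0.603 CPM (counts at a promoter per 1000000 counts of its library, scaled by TMM, the trimmed mean of M-values) in the control group, against 0.722 at the 71 members whose listed start is not an ATG.

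The letters of known regulatory motifs were then searched on both strands of the same 300-base windows. TAATTA, the core bound by LHX2 and related homeodomain proteins that act in receptor gene choice, occurred in 33 of 135 windows (24.4%) and in 3.91% of all promoters. TATAAA, the TATA box, occurred in 48 member windows (35.6%) and in 10.1% of all promoters. The core of the EBF (Olf-1) motif, searched as TCCC, any 2 bases and then GGGA, occurred in 2 member windows (1.48%) and in 1.34% of all promoters. The first motif and the TATA box hold only A and T and the windows are rich in A and T, which was not adjusted for. At the olfactory receptor genes of other chromosomes, chosen by the same symbol rule, the shares were 21.3%, 33.3% and 0.575%.

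Counts at the member promoters were low in every library. Control 1 held 2008 counts over the 175 members, control 2 held 1274, overexpression 1 held 791 and overexpression 2 held 461. The median member had 10, 6, 4 and 2 counts in these libraries, while the median nuclear promoter had 98, 74, 40 and 23. No member was at 0 in control 1, 4 were at 0 in control 2, 8 in overexpression 1 and 20 in overexpression 2, and 147 of the 175 had at least 1 count in every library. A single member, OR51D1, had 10 or more counts in all 4 libraries.

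**Figure D1:**
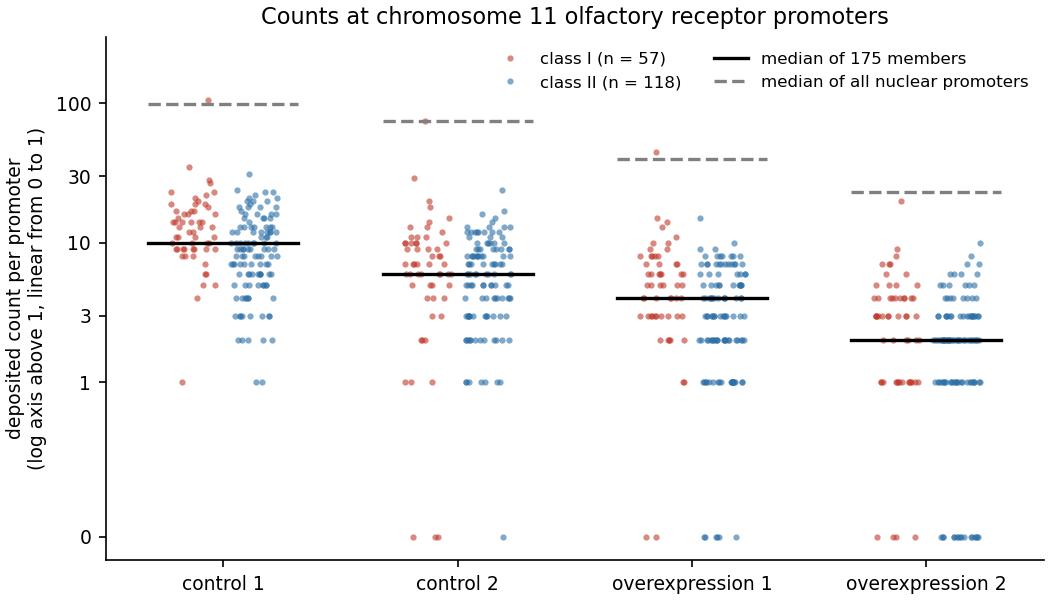
Deposited count at each of the 175 member promoters (y axis, logarithmic above 1) in each library (x axis), class I in red and class II in blue. Solid bars mark the member median, 10, 6, 4 and 2 from left to right, dashed bars mark the median nuclear promoter, 98, 74, 40 and 23, and the highest point in every library is OR51D1.

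The depth behind these values differed between the groups. Total counts over all promoters were 10255182, 8279528, 7211724 and 3734519, controls first. Mitochondrial promoters took 51.9% and 55.6% of the control counts and 74.7% and 73.8% of the overexpression counts, which left 4928862, 3675088, 1826951 and 979895 nuclear counts. The nuclear depth behind a member in the overexpression group was therefore lower, and its part in the comparisons that follow was not tested. MORC2 itself, the gene carried by the plasmid, had 257, 162, 87 and 42 counts at its own promoter (log2 fold change -0.16, SE 0.157, adjusted p = 0.645 by edgeR), which does not check the overexpression, because a promoter count is not a transcript level.

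Expressed as TMM-scaled CPM, the member promoters lay near the low end of all promoters in both groups. The median member level was 0.676 CPM in the control group and 0.709 in the overexpression group, against 7.68 and 7.98 for all 28266 promoters with a count. Measured on nuclear counts, the median member reached 0.0951 of the median nuclear promoter in the control group and 0.0936 in the overexpression group. Averaged over the 4 libraries, the median member sat at percentile 10.6 of nuclear promoters, and 166 members fell in the lowest 25%. Ribosomal protein promoters, which are open in dividing cells, had medians of 18.6 and 16.5 CPM. The level was not 0: the median member collected 23 counts over the 4 libraries, and 138 members lay within 2 times the median member in either direction.

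Within this flat field OR51D1 stood apart. Its promoter had 106, 75, 45 and 20 counts, the highest of the members in each library, and its mean level of 7.50 CPM was 10.6 times that of the median member and at percentile 50.3 of nuclear promoters. It held between 4.34% and 5.89% of all member counts in each library. OR51D1 is a class I receptor gene and has no window in the reference promoter table, so its sequence is not shown. In the gene table the next member after it is OR51E1, a receptor best known for its expression in prostate, which had 35, 29, 14 and 6 counts, or 3.51 times the level of the median member. The member after that, OR51E2, another receptor known from prostate, had 19, 10, 3 and 3 counts. OR51C1, the entry listed directly after OR51E2, had the same 4 counts, and whether the 2 rows cover the same fragments cannot be told from the count table.

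Only 12 members exceeded 2 times the median member. OR52N2, the member richest in CpG, had 28, 18, 15 and 7 counts, and OR10S1, the highest class II member, had 31, 24, 10 and 6. OR52W1, the last gene of the class I run, had 27, 20, 10 and 7, and OR2AT4, which forms a run of its own, had 21, 15, 15 and 6. The other members among the 10 highest were OR4D9 (24, 16, 7 and 6 counts), OR52K1 (17, 13, 13 and 5), OR9Q2 (20, 10, 9 and 7) and OR9Q1 (16, 14, 5 and 8). All of these lay below the median nuclear promoter. At the other end, 25 members lay under 0.5 times the median member. OR52N1 had 1, 0, 1 and 0 counts, OR4A15 had 3, 2, 0 and 0, OR52N5 had 4, 0, 0 and 1, OR5T3 had 2, 4, 1 and 0, and OR4C6 had 5, 0, 2 and 0. At such counts a 0 allows up to 3 counts in that library, so differences among the lowest members were not detectable at this depth.

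The order of the members was shared in part between libraries. The Spearman correlation of counts across the 175 members was 0.66 between the 2 control libraries, 0.41 between the 2 overexpression libraries and between 0.49 and 0.62 for pairs across groups. These values describe members that share library, depth and base composition, and are not tests. The variance of the counts divided by their mean was 7.88, 6.44, 4.05 and 2.12 in the order above, and without OR51D1 it was 3.57, 2.97, 2.07 and 1.52, above the value of 1 that counting error alone would give.

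Levels differed along the chromosome. The run from OR4C13 to OR5AK2 averaged 5.85, 4.26, 2.26 and 1.36 counts per member, the lowest of the runs with more than 1 member in every library. Its median level in the control group was 0.328 CPM, against 0.832 in the class I run and 0.884 in the run from OR6X1 to OR8A1. The class I run averaged 15.0, 8.75, 6.07 and 3.32 counts per member, and the OR6X1 to OR8A1 run 14.1, 8.96, 5.00 and 3.35. Class I members had 1.54, 1.33, 1.61 and 1.44 times the mean count of class II members, and 1.37, 1.15, 1.43 and 1.31 times without OR51D1. This ratio was above 1 in every library and did not separate the groups (1.43 ± 0.14 in control and 1.52 ± 0.12 in overexpression, SD, n = 2 each).

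**Figure D2:**
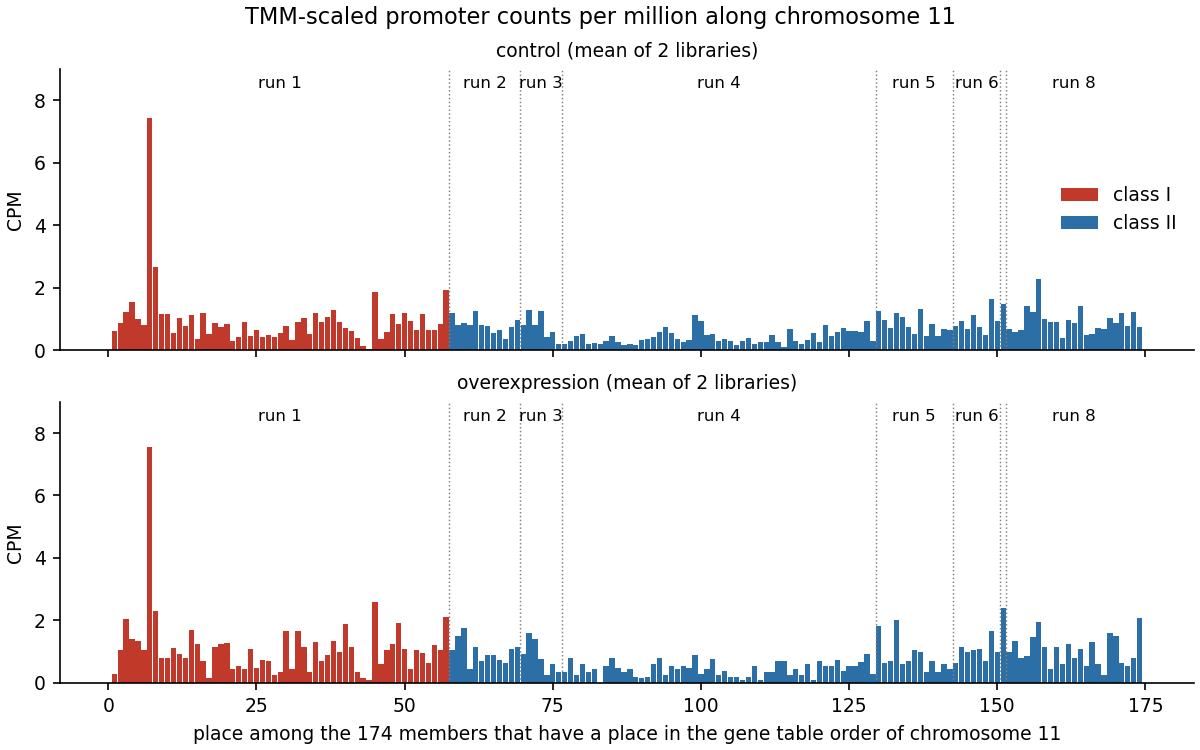
Mean TMM-scaled CPM of the 2 control libraries (top) and the 2 overexpression libraries (bottom) at each of the 174 members that have a place in the gene table order (x axis), class I in red and class II in blue, with dotted lines between runs. OR51D1 is the tall bar in both panels, and the wide run 4, from OR4C13 to OR5AK2, is the lowest stretch in both, with a control median of 0.328.

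Member levels also followed base composition. Across the 135 members with a window, G + C percent and mean CPM had a Spearman correlation of 0.53, and the number of CpG and the level one of 0.21, both given as descriptions. The 68 members at or below 37.0% G + C had a median control level of 0.501 CPM, and the 67 above it had 0.832. The OR4C13 to OR5AK2 run had a median of 33.2% G + C and the class I run 40.0%, while the run from OR4B1 to OR4A47, with 7 members, had the lowest median, 32.3% over 5 windows, and a median control level of 0.806 CPM. The level of that last run covers all 7 members, and OR4X1 (0.806 CPM) and OR4S1 (1.26 CPM) have no window. Among its 5 members with a window, OR4C5 held both the median G + C and the median control level, 0.576 CPM. Low G + C and a low level thus went together in the OR4C13 to OR5AK2 run. Over its 5 members with a window, the OR4B1 to OR4A47 run had a slightly lower median G + C than that run (32.3% against 33.2%). Its median control level over the same 5 was higher, 0.576 against 0.328 CPM. This describes few members, and the values of the OR4C13 to OR5AK2 run cover 46 windows for G + C and 53 members for the level. The parts of position and composition were not tested. Between G + C and the log2 fold change the correlation was 0.019.

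**Figure D3:**
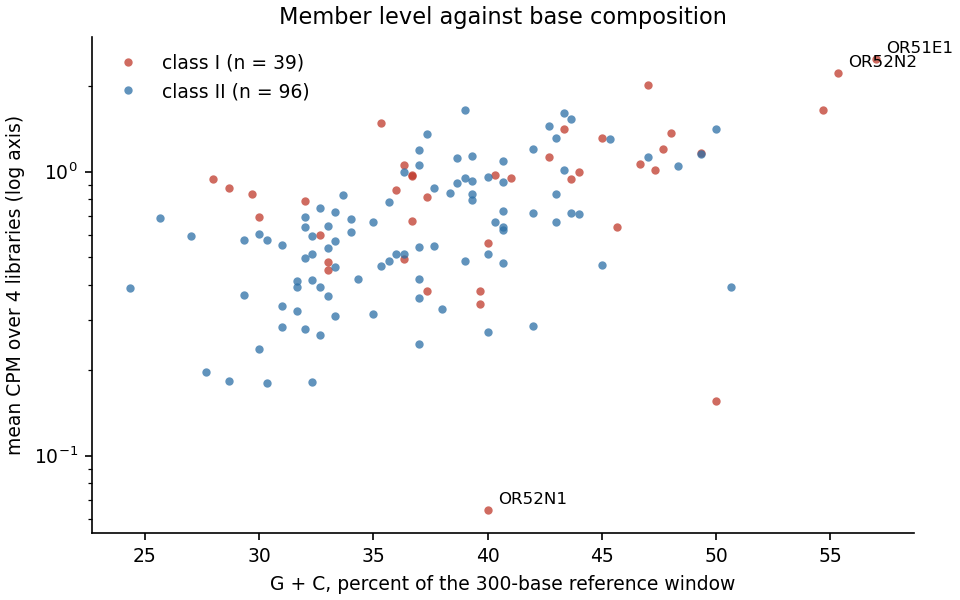
Mean level over the 4 libraries (y axis, logarithmic CPM) against the G + C percent of the 300-base RefSeq window (x axis) for the 135 members with a window, class I in red and class II in blue. OR51E1 and OR52N2 lie at the upper right and OR52N1 at the bottom, and the Spearman correlation is 0.53.

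No member promoter passed the threshold between the overexpression and control groups. By the edgeR quasi-likelihood test over all 28266 promoters with Benjamini-Hochberg adjustment, 0 of the 175 members had an adjusted p under 0.05, and the smallest member value was 0.242. Over all promoters 554 (1.96%) passed, 220 of them (0.778%) higher and 334 (1.18%) lower in the overexpression group, and without 1 library the count over all promoters was 171 (control 1), 190 (control 2), 73 (overexpression 1) or 93 (overexpression 2), with 0 members in each case. At an unadjusted p under 0.05 edgeR gave 3 members, all higher in overexpression, against 16.1% of all promoters. DESeq2 gave 0 members at that level against 6.14% of all promoters and left the adjusted p of all 175 undefined, and limma-voom gave 8 members against 17.9%, none past the adjusted threshold. The median standard error of the log2 fold change was 0.770 over the 174 members where it is finite (all but OR4A15), against 0.214 over all promoters.

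The 5 members with the smallest p among those higher in overexpression were all carried by few counts. OR8K1 had 2, 1, 4 and 2 counts, a ratio of 5.80 with an exact 95% interval of 1.24 to 35.8 that covers counting error only (log2 fold change 2.40, SE 1.21, edgeR adjusted p = 0.242). OR51H1 had 9, 1, 6 and 4 counts, and its 2 control libraries differed more from each other in count than its 2 overexpression libraries did. OR8A1 had 9, 9, 4 and 10 counts, with overexpression 2 alone high on the scaled level. OR52P1 had 10, 7, 4 and 9 counts and OR52E1 had 5, 6, 8 and 2. The first 3 were the members with an unadjusted p under 0.05, and the edgeR adjusted p was 0.271 for OR51H1 and 0.280 for OR8A1.

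The 5 with the smallest p among those lower in overexpression did not reach an unadjusted p of 0.05. OR4D5 had 23, 12, 2 and 4 counts, and its scaled levels were 1.41 ± 0.34 and 0.862 ± 0.696 CPM (SD, n = 2 each). OR4S1 had 19, 12, 1 and 4 counts. OR5D18 had 9, 9, 1 and 1, a ratio of 0.322 with an exact interval of 0.0363 to 1.35. OR5M9 had 6, 7, 1 and 0 counts and OR51A7 had 9, 4, 0 and 1, each a ratio of 0.223 with an exact interval of 0.00525 to 1.49. All 3 intervals include 1.

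No difference between the groups passed the test at the highest members. OR51D1 had a level of 7.45 ± 0.20 CPM in control and 7.55 ± 1.10 in overexpression (SD, n = 2 each), with a log2 fold change of 0.06 (SE 0.218, edgeR adjusted p = 0.932), and the groups overlapped. OR51E1 had 2.67 ± 0.23 and 2.31 ± 0.40 (log2 fold change -0.14, SE 0.386, edgeR adjusted p = 0.896). OR52N2 had 1.88 ± 0.18 and 2.57 ± 0.29, with both overexpression libraries above both control libraries and an edgeR adjusted p of 0.593. OR2AT4 had 1.48 ± 0.03 and 2.40 ± 0.53, again without overlap, with an edgeR adjusted p of 0.377. OR52K1 and OR9Q2 also had both overexpression libraries above both controls, at edgeR adjusted p of 0.401 and 0.544. OR10S1 had 2.28 ± 0.08 and 1.94 ± 0.13, with both overexpression libraries below both controls and an edgeR adjusted p of 0.826. Both overexpression libraries lay above both control libraries at 36 members, against 23.5% of all promoters, and below both at 24 members, against 24.9%. For the members these counts are 20.6% and 13.7%.

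**Figure D4:**
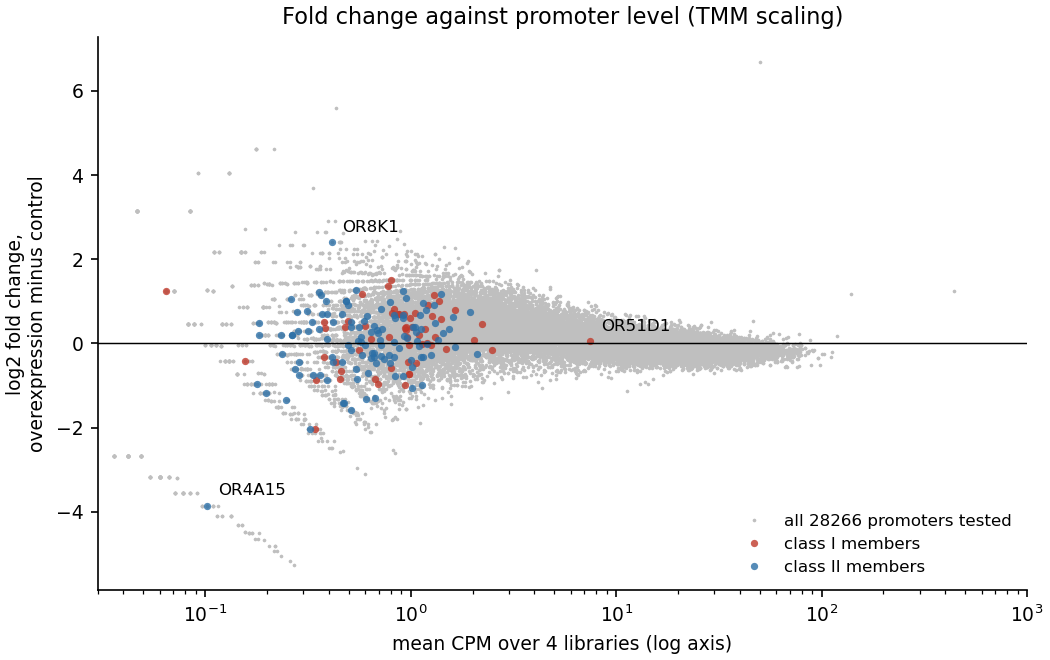
Log2 fold change of overexpression over control (y axis, TMM scaling, edgeR) against the mean level over the 4 libraries (x axis, logarithmic CPM) for all 28266 promoters tested in grey and the members in red (class I) and blue (class II). The members fill the low end with fold changes on both sides of 0 and a median of 0.16, a sign that turns under loess and library-total scaling, while OR51D1 lies further right at 0.06.

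As a set the members leaned slightly upward on the TMM scale, and that lean turned with the scaling. The median member log2 fold change was 0.16 (quartiles -0.36 and 0.61) and 102 of 175 members (58.3%) lay above 0, against a median of 0.0059 and 50.7% over all promoters, but it was -0.24 under loess scaling on abundance and -0.60 when library totals were used. Without control 1 it was 0.29, without control 2 it was 0.03, without overexpression 1 it was 0.04 and without overexpression 2 it was 0.05. Library totals moved the median of all promoters to -0.76, and 15 members then passed the adjusted threshold as lower, against 57.8% of all promoters. Under loess scaling 8 members had an unadjusted p under 0.05, all lower, against 10.1% of all promoters, and 0 passed the adjusted threshold. In the TMM fit the 25% of promoters with the lowest level had a median log2 fold change of 0.31 over 7067 promoters and 0.17 over the 168 members in it. Above 0 lay 67.6% of those promoters and 58.3% of those members, so the members leaned upward less than promoters of like level. The highest 25%, with no member, had a median of -0.14. No direction can therefore be given to the members apart from the scaling.

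The share of nuclear counts that fell on the members uses no TMM factor, but it scales each library by its nuclear total. The share is therefore a further choice of scaling and not a measure free of one. It was 0.0407% in control 1 (95% Wilson interval 0.0390 to 0.0426), 0.0347% in control 2 (0.0328 to 0.0366), 0.0433% in overexpression 1 (0.0404 to 0.0464) and 0.0470% in overexpression 2 (0.0429 to 0.0515), intervals that cover counting error only. The group means were 0.0377% ± 0.0043 and 0.0452% ± 0.0027 (SD, n = 2 each), a ratio of 1.20 without overlap. The exact two-sided permutation test gave p = 0.333, the smallest value that 2 against 2 libraries allow. The ratio was 1.21 without OR51D1 (an alternative chosen after its level was seen) and 1.17 without the class I run, and it was 0.667 when mitochondrial counts were left in the denominator. The 2 libraries with the higher share were also those with the fewest nuclear counts and the most mitochondrial counts, as given above, and that relation was not tested.

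Olfactory receptor promoters of other chromosomes (225 in the table) held 0.0579% ± 0.0048 of nuclear counts in control against 0.0750% ± 0.0005 in overexpression (ratio 1.30), also without overlap and with p = 0.333 by the exact permutation test. The other 1548 promoters of chromosome 11 held 5.55% ± 0.10 and 5.63% ± 0.12, and ribosomal protein promoters 0.433% ± 0.014 and 0.426% ± 0.015, and both of these overlapped between groups (SD, n = 2 each). The mean ribosomal protein promoter had 22.9, 25.7, 20.2 and 19.6 times the count of the mean member, or 24.3 ± 1.99 against 19.9 ± 0.47 (control and overexpression, SD, n = 2 each), a ratio of 0.818 with p = 0.333 by the exact permutation test. The median nuclear promoter had 9.80, 12.3, 10.0 and 11.5 times the count of the median member, values that overlapped between the groups. The groups were apart by the ratio of means and not by the ratio of medians. The member medians are whole counts of 10, 6, 4 and 2, so the ratio of medians moves in coarse steps.

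**Figure D5:**
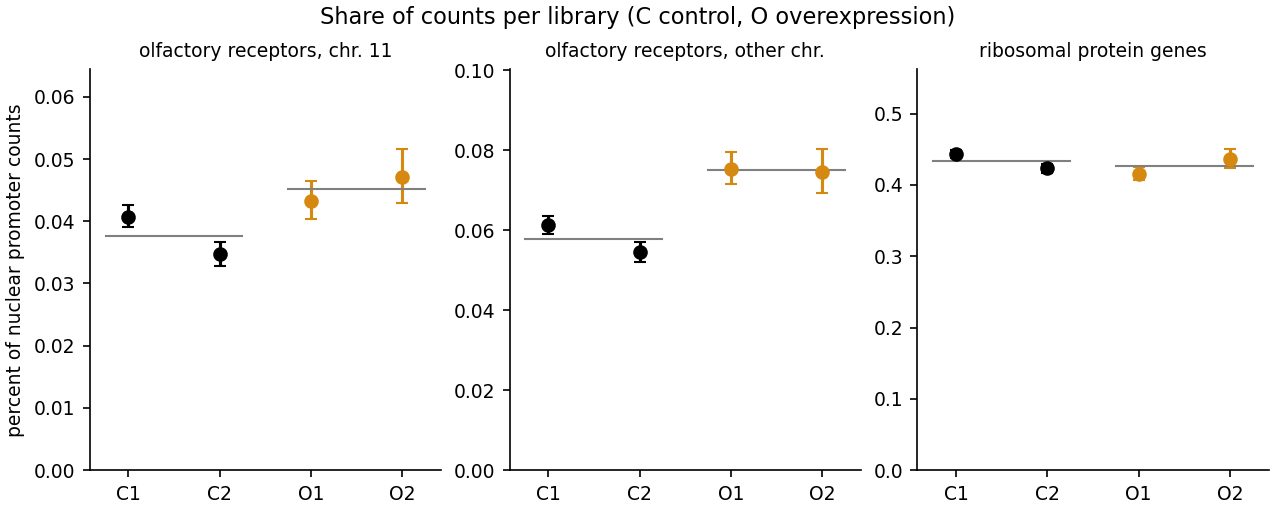
Percent of nuclear promoter counts (y axis, starting at 0) in the chromosome 11 members, the olfactory receptor genes of other chromosomes and the ribosomal protein genes, for control (C1, C2) and overexpression (O1, O2) libraries with 95% Wilson intervals and group means as grey lines. Both receptor sets sit higher in O1 and O2, with means of 0.0452% against 0.0377% and 0.0750% against 0.0579%, and the ribosomal protein shares overlap. Promoters of a like low level that are not receptor genes are not shown.

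The class I run surrounds the beta-globin genes, where HBB passed the test and the neighbouring receptor genes did not. HBB, the adult beta-globin gene, had 13, 9, 411 and 362 counts, a log2 fold change of 6.69 (SE 0.328) with an edgeR adjusted p of 1.74e-297. Only the overexpression group received plasmid DNA. Whether its HBB counts come from the chromosome or from the plasmid cannot be told from the counts and was not tested. Of the 3 nearest members on one side, OR51V1, directly next to HBB, had 11, 2, 4 and 2 counts, OR52A1 had 5, 5, 8 and 0 and OR52A5 had 9, 7, 5 and 0. On the other side of the globin genes OR51B4 had 8, 3, 1 and 1 counts, OR51B2 had 9, 5, 2 and 1 and OR51B5 had 16, 4, 7 and 6. The edgeR adjusted p of these 6 members lay between 0.433 and 0.956. Their standard errors of the log2 fold change ran from 0.562 (OR51B5) to 1.27 (OR51B4), so only large changes could have passed. The other globin genes did not pass the test either. HBE1, the embryonic gene, had 5, 6, 8 and 5 counts, with both overexpression libraries above both controls on the scaled level. Its log2 fold change was 1.74 (SE 0.659, unadjusted p = 0.0077 and adjusted p = 0.132 by edgeR). HBD had 8, 7, 3 and 4 counts, HBG1 had 7, 4, 3 and 2 and HBG2 had 15, 4, 4 and 2, with log2 fold changes of 0.43, 0.39 and -0.12. These genes lay close to the level of the receptor genes.

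The genes through which receptors signal and are controlled mostly had higher counts than the receptor genes. Of 15 genes of odour signalling and receptor transport, 1 passed the test, as higher, and none as lower, against 1.96% of all promoters past the threshold and 0.778% past it as higher. This was GNG13, a G protein gamma subunit, with 230, 183, 140 and 64 counts (log2 fold change 0.51, SE 0.137, edgeR adjusted p = 0.0245). GNAL, the olfactory G protein alpha subunit, had 129, 100, 59 and 30 counts and ADCY3, the cyclase it activates, 305, 218, 127 and 61, both above the median nuclear promoter. RTP1, which carries receptors to the cell surface, had 14, 8, 9 and 3 counts and RTP2 had 11, 6, 7 and 4, within the range of the receptor promoters. CNGA2, a channel subunit that opens on cyclic AMP, had 28, 19, 14 and 11 counts.

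Among 10 genes of receptor gene control 0 passed the adjusted threshold and 1 had an unadjusted p under 0.05 by edgeR (16.1% of all promoters did), and all 10 lay above the median nuclear promoter. LHX2, a homeodomain factor of receptor enhancers, had 281, 201, 89 and 55 counts, LDB1, its cofactor, had 412, 310, 147 and 91, EBF1 had 377, 256, 116 and 65 and KDM1A, a histone demethylase, had 227, 147, 64 and 56. Marker promoters of the kidney line were open in part: 5 of 9 markers lay above the median nuclear promoter, with WT1 at 151, 119, 69 and 45 counts and PAX8 at 20, 20, 13 and 10. Markers of blood, liver, pancreas and epidermis (6 genes) all lay below that median, with ALB at 5, 1, 4 and 5 counts and PTPRC at 7, 5, 3 and 1. Of 6 olfactory sensory neuron markers, 3 lay above it, but OMP, the defining marker, had 37, 21, 11 and 10 counts and lay below. GNG13 belongs to this list too and was its only gene past the threshold. By edgeR 0 of the 9 kidney line markers passed, with 2 at an unadjusted p under 0.05, and 0 of the 6 markers of other tissues, with 3 at that level, all higher in overexpression, where 16.1% of all promoters reached it.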

How the data were processed

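ATAC-seq promoter counts of 4 libraries, 2 control and 2 overexpression, were used. According to the study's methods and the labels, the authors trimmed reads, aligned them to T2T-CHM13 with Bowtie2, kept proper pairs of mapping quality 30 or more and removed duplicates with Picard. The methods count fragments by their midpoint in short windows across the genome and define promoters as 2 kb windows around transcription start sites. How the counts per promoter were formed is not described in the methods. The deposited values are raw whole-number counts per Entrez identifier. Filtering on mapping quality removes fragments that fit several near-identical receptor genes, so members with close copies, such as OR9G9, are uncertain. The 2 peak lists were not used here, since no gene positions on T2T-CHM13 were at hand.

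Symbols and gene order came from the RefSeq gene table (GRCh38.p14), which named 28763 of 28775 identifiers, the other 12 being left unnamed. Mitochondrial promoters (37) were kept in the fit and left out of nuclear shares. Promoters with no count (509) were left out. The quasi-likelihood test (legacy form) of edgeR 4.0.16 was fitted with TMM on the 28266 others (R 4.3.3), with Benjamini-Hochberg adjustment over all of them and a threshold of 0.05. Its prior degrees of freedom were infinite, so the variance of each promoter came wholly from the trend over promoters. The study filtered low counts with filterByExpr, and here that filter was an alternative. DESeq2 1.42.0 and limma-voom (limma 3.58.1) were further alternatives, as were other scalings, filters and left-out replicates. Single values were compared by exact permutation (scipy 1.17.1). The fit was tested on simulated data.

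The members and lists were chosen with earlier results of these data known. Named members were the 10 highest and 5 lowest by mean level, the 5 with the smallest p in each direction, and the 3 nearest the beta-globin genes on each side. OR51S1, OR51E2 and OR51C1 were named after their values were seen.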

Additional observations from a re-analysis of the deposited data

How the results depend on the processing

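The number of member promoters past the threshold, 0, held under every scaling, filter, test and left-out library tried except library totals, which gave 15, all lower, and DESeq2, which gave no adjusted p for any member. After filterByExpr 33 members were tested and after a minimum of 10 counts in every library only 1, OR51D1. The median member log2 fold change stayed positive under the other settings, from 0.03 to 0.29 when 1 library was left out, but was -0.60 with library totals and -0.24 with loess scaling. Over all promoters the count past the threshold was 554, and it was 16396 with library totals (54 higher, 16342 lower), 109 with loess scaling (58 higher, 51 lower), 467 with upper-quartile scaling (373 higher, 94 lower), 368 with at least 10 counts in every library (188 higher, 180 lower), 127 with DESeq2, 1199 at an adjusted p of 0.1 and 73 to 190 when 1 library was left out. Upper-quartile scaling moved the median of all promoters by 0.10, to 0.11. The causes were not tested.

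The member share in overexpression over control, 1.20, was 0.667 with mitochondrial counts in the denominator and 1.11 to 1.30 with 1 library left out, and the ratio of ribosomal protein to member counts, 0.818, stayed between 0.773 and 0.868. The level against nuclear promoters, 0.0951 in control and 0.0936 in overexpression, was 0.0619 and 0.0742 by means and 0.0777 and 0.0781 against the other promoters of chromosome 11, and 0.0811 to 0.102 and 0.0870 to 0.100 with 1 library left out. Of 31 named members 16 kept their sign under all alternatives tried and 15 did not. OR51D1 was among those that changed sign, with library totals, with loess scaling and without overexpression replicate 1.

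The labels number the replicates alike in both groups. Deviations of same-numbered libraries correlated at 0.051 over 14976 promoters, so shared numbers were not treated as pairs. With a replicate block 457 promoters and 0 members passed the threshold and the median member log2 fold change was 0.16. At a median of 2 counts per member in overexpression 2, depth limits what can be said of single receptor genes, and no exact permutation test on 2 against 2 libraries can go below p = 0.333.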

Other observations

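The promoters of the olfactory receptor families of chromosome 11 differed in level. Family 5, the largest with 35 members, averaged 7.26, 5.29, 2.91 and 1.26 counts per member in control 1, control 2, overexpression 1 and overexpression 2, and family 4, with 25 members, averaged 8.84, 5.36, 2.88 and 2.40. Family 10, with 16 members, averaged 14.9, 9.31, 5.50 and 2.81, and the class I family 52, with 27 members, averaged 13.2, 8.04, 6 and 3.07. Families 10 and 52 were above families 4 and 5 in each of the 4 libraries. The level also differed within a family by position. The 13 family 4 members in the OR4C13 to OR5AK2 run averaged 4.31, 2.62, 1.77 and 1.54 counts, and the 12 outside it 13.8, 8.33, 4.08 and 3.33. For family 5 the 25 members in that run averaged 6.24, 4.92, 2.40 and 1.12 counts, and the 10 outside it 9.8, 6.2, 4.2 and 1.6. Members outside the run were higher in all 4 libraries in both families, as a description with no test.

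The 7 transcribed pseudogenes had a mean of 8.43, 5.57, 4.29 and 2.71 counts per promoter, and the 168 protein-coding members had 11.6, 7.35, 4.53 and 2.63. The receptor promoters of other chromosomes held a wider range, with a highest count of 336 in control 1 against 106 for OR51D1, the highest member. Their mean count was 1.17, 1.22, 1.35 and 1.23 times that of the chromosome 11 members, and 21 of 217 tested (9.68%) had an unadjusted p under 0.05 by edgeR, below the 16.1% of all promoters, 19 of them higher in overexpression, with 0 past the adjusted threshold.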
